A study of Rattus norvegicus with 12 samples.

Results

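Transcripts of histone genes were measured in the skull bone of rats aged 10 weeks, 24 h after an operation, with 12 one-colour Agilent arrays of total RNA. The members were chosen by gene name alone: every rat probe whose name in the scanner files begins with Hist1h to Hist4h, H1f, H2af, H2bf or H3f. That gave 45 of 34912 gene names, read by 63 of 45598 probes. Replication-dependent genes of the histone clusters (names beginning with Hist) made up 33 names and 41 probes, and variant genes 12 names and 22 probes. No measured value entered the choice of a member, but the family was singled out with earlier results of these arrays known, so counts over its members are a description.

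The bur group (4 arrays) had a defect of 8 × 3 mm drilled in the skull bone, at about 0.75 mm/s. The laser group (4 arrays) had a defect of that size cut by an Er:YAG laser, a device that removes tissue with infrared pulses, with 3 strokes at 20 Hz, 127 mJ per pulse, 20.2 J/cm2 per pulse and 200 µs pulses, moved at about 2 mm/s. In the control group (4 arrays) the periosteum, the membrane over the bone, was removed and the bone was not cut. No group was left without surgery. Strain and sex were not given in the sources used here, and whether replicates are different animals is not stated in the labels. A p-value here therefore reflects only the spread between these samples, which may be technical.

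Histones are the proteins around which DNA is wound: H2A, H2B, H3 and H4 form the core of the nucleosome and H1 binds the DNA between cores. Clustered genes are transcribed mainly in S phase, when DNA is copied, and their mRNAs are unusual in ending in a stem-loop in place of a poly(A) tail. Many variant genes, such as those of H2A.Z, macroH2A and H3.3, lie apart from the clusters, give polyadenylated mRNAs and are transcribed in dividing and resting cells alike. The variant class, set by name, also holds the genes of H2A.X and H1.0, for which not all of this holds.

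The probes are 60 bases long, and where on the mRNA each one binds differs. By the deposited coordinates (rn4 build), 27 of the 63 probes lie on chromosome 17, which holds the large cluster. Exon and UTR are not assigned, because gene models on that build were not used here. A stem-loop (a stem of 6 bases beginning with GG, a loop of TTTC and the reverse complement of the stem) was found in 6 member probes, against 9 of all 45598 probes. The stem-loops of 4 clustered genes are shown because they carry the feature that sets these mRNAs apart. The stem and loop are in capitals, and the coordinates are those of the whole probe, of which 30 bases are shown.
Hist1h2bf, chr17:50343406-50343465, plus strand: taacccaaaGGCTCTTTTCAGAGCCaccta
Hist1h2ai, chr17:50387858-50387917, plus strand: caccaaaGGCTCTTTTCAGAGCCacctata
Hist2h2aa2, chr2:191044891-191044950, minus strand: aaaaaacGGCTCTTTTCAGAGCCacccaca
Hist1h3a, chr17:48524538-48524597, minus strand: aaccaaaGGCTCTTTTCAGAGCCacacacg

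The hexamer AATAAA, the usual signal for a poly(A) tail, was in the probes of 3 clustered and 3 variant genes, and in 9.04% of all probes on the array. The clustered ones are shown, with the hexamer in capitals, because this signal belongs to mRNAs with a poly(A) tail.
Hist3h2ba, chr10:45238682-45238741, plus strand: taatggtacattAATAAAtttgtctggttc
Hist2h2be, chr2:191026547-191026606, plus strand: gttattatcattAATAAAgttgccacttag
Hist1h2ac, chr17:50112438-50112497, plus strand: ttgcggctttcaAATAAAgtcccgactctg

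Copies of a core histone are close to identical, which limits what a probe can tell apart. Of the 41 clustered probes, 12 had at least 45 identical aligned bases with another member probe. Probes of 3 H2A genes that end at the stop codon are shown, with the 9 positions at which they are not all alike in capitals.
Hist1h2ak, chr17:50436332-50436391, minus strand: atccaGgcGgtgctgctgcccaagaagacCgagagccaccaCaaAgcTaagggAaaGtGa
Hist1h2ah, chr17:48507180-48507239, minus strand: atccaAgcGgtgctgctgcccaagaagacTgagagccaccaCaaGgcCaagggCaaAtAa
Hist2h2aa3, chr2:191045014-191045073, minus strand: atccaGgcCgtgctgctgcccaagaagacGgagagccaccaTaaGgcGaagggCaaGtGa
These probes may read each other's mRNA, and that of H2A copies not on the array, so their values belong to a set of H2A mRNAs rather than to 1 gene. Hist2h4 and Hist3h3 were each read by 2 probes of identical sequence. Across the 12 arrays the Hist3h3 pair differed by at most 0.07 log2 units and the Hist2h4 pair by at most 0.16. The third identical pair, of Hist1h2an, was not well above background and differed by up to 1.23.

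Of the 63 probes, 52 (33 clustered, 19 variant) passed the filter on dim probes, which asks for a signal well above background on 4 or more of 12 arrays and left 27194 probes in all. Slide 1 carried the bur and the control arrays, a column each, and slide 2, scanned apart, carried the laser arrays. In both comparisons with laser arrays, slide and treatment cannot be told apart, and between bur and control arrays slide column and treatment cannot. The share of spots well above background was 57.0 to 59.9% on bur, 67.5 to 72% on laser and 57.2 to 64.4% on control arrays. All 9 markers of osteoblasts and osteocytes were measured, with a log2 of their summed signal of 16.9 to 17.6 on bur, 17.3 to 17.9 on laser and 16.4 to 17.3 on control arrays, so bone cells were represented in every group. Neural markers varied most among the control arrays (6 markers, 7.21 to 10.1 on bur, 7.93 to 8.70 on laser and 8.95 to 13.5 on control arrays), and counts are therefore also given without control 1 and control 4. In such bulk samples, fewer cells of a type and less RNA per cell cannot be told apart.

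Bur-drilled bone was set against control bone. Clustered histone mRNA was lower after drilling: 24 of 33 clustered probes fell and 0 rose at a limma adjusted p under 0.05. At an unadjusted p under 0.05, 29 were lower and 0 higher. In a limma fit of the authors' deposited values, 21 of the 28 clustered probes listed were lower and 0 higher. Over all 27194 probes, 20.4% were called in this comparison, 12.6% higher and 7.84% lower. The median log2 fold change was -1.0 over the clustered probes and 0.10 over all probes. Signs were negative for 32 of the 33 clustered probes. Taken array by array, the median difference of the 33 probes from the control mean was -1.08, -0.63, -0.88 and -1.33 on bur arrays, against 0.11, 0.22, -0.02 and -0.27 on control arrays. Bur 2 was thus the mildest of the bur arrays and control 4 the lowest of the controls, and the groups did not overlap. Fits without control 1 and control 4 called 21 clustered probes lower and 0 higher. Under scaling to the 75th percentile the median of all probes was -0.09 in place of 0.10 and the share of higher among all calls was 41.1% in place of 61.6%, yet 25 clustered probes were called lower and 0 higher.

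Each of the 5 types of clustered histone held probes that fell. Types follow the gene names. Among H1 probes 3 of 4 fell, among H2A probes 7 of 11, among H2B probes 7 of 10, among H3 probes 3 of 3 and among H4 probes 4 of 5. Median log2 fold changes were -1.08 for H1, -0.94 for H2A, -1.06 for H2B, -0.39 for H3 and -1.12 for H4. The H3 median rests on 3 probes, 2 of which are the identical Hist3h3 pair. Hist1h2ail1, counted with H2A, is not in it, though its probe codes for part of H3 (log2 fold change -1.17, described below).

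Hist1h1b, a linker histone of dividing cells, had the largest fall of the family in this comparison. It read 10.02, 10.60, 9.87 and 9.48 log2 units on bur arrays, against 12.09, 11.99, 11.56 and 10.94 on control arrays. Every bur array lay below every control array, with a log2 fold change of -1.65 ± 0.28 (SE, limma adjusted p = 0.00266). Its probe is the last 60 bases of the coding part, with the stop codon in capitals.
Hist1h1b, chr17:50361225-50361284, plus strand: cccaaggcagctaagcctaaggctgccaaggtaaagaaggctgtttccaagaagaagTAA

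Hist2h2ac, a core H2A gene, read 13.00, 13.19, 13.24 and 12.66 on bur arrays, against 14.40, 14.69, 14.20 and 14.14 on control arrays. These groups too were apart, and the log2 fold change was -1.34 ± 0.18 (SE, limma adjusted p = 0.000813). Hist1h2ail1, an H2A gene by name, read 11.94, 12.64, 12.45 and 11.84 on bur arrays, against 13.51, 13.65, 13.39 and 13.01 on control arrays. Its log2 fold change was -1.17 ± 0.21 (limma adjusted p = 0.00344). The letters of its probe code for a part of H3 that the H3 probe of Hist2h3c2 also covers, so this is no reading of H2A.

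The H2B genes held readings from both kinds of mRNA end. Hist3h2ba was read at base 193 of its transcript (log2 fold change -1.13, limma adjusted p = 0.000956) and at its AATAAA. The probe at the AATAAA read 10.23, 10.48, 9.62 and 9.76 on bur arrays, against 11.36, 11.76, 11.60 and 11.44 on control arrays, with a log2 fold change of -1.52 ± 0.20 (SE, limma adjusted p = 0.000827). Hist1h2bf was read across its stem-loop, at 6.62, 7.51, 6.88 and 6.82 on bur arrays, against 8.30, 8.59, 8.14 and 7.57 on control arrays (log2 fold change -1.19 ± 0.24, limma adjusted p = 0.00587). For each of these 2 probes every bur array lay below every control array. The other AATAAA probes of clustered genes did not pass: Hist2h2be had a log2 fold change of -0.37 (adjusted p = 0.102) and Hist1h2ac one of -0.78 (adjusted p = 0.0703). The other kept stem-loop probes did not pass: Hist1h2ai had a log2 fold change of -0.94 (adjusted p = 0.076) and Hist2h2aa2 one of 0.14 (adjusted p = 0.63), the only positive value among the clustered probes.

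Hist2h2ab, an H2A gene of the cluster on chromosome 2, was not well above background on any bur array but was on all 4 control arrays. It read 2.95, 2.30, 3.20 and 2.69 on bur arrays, against 4.36, 4.82, 4.15 and 3.51 on control arrays. Bur values under the lowest signal well above background on their array were raised to that signal, which gave a 2.48-fold lower value in bur-drilled bone. This fold is not a lower bound. The values as processed had a limma adjusted p of 0.00642. At so low a signal the size depends on the background correction: the log2 fold change was -1.42 as processed here, -0.24 with the normexp correction and -0.48 in the authors' deposited table.

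The 2 probes of Hist3h3, whose human counterpart is a testis H3, fell least among the clustered probes called, with log2 fold changes of -0.39 and -0.37 (limma adjusted p = 0.0291 and 0.0411). The first read 12.60, 12.68, 12.63 and 12.50 on bur arrays, against 13.06, 13.13, 12.98 and 12.82 on control arrays. The groups did not overlap, but under 75th percentile scaling the adjusted p was 0.101 and 0.134. These calls held in 12 and 5 of 21 alternatives run. Hist1h1c, the linker histone H1.2, read 11.18, 11.56, 11.54 and 11.30 on bur arrays, against 11.89, 11.77, 12.12 and 11.90 on control arrays (log2 fold change -0.53, limma adjusted p = 0.0158, and 0.0641 without control 1 and control 4).

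The H4 gene Hist2h4 read 11.11, 11.9998, 11.54 and 11.02 on bur arrays, against 12.67, 12.84, 12.59 and 12.09 on control arrays. Although bur 2 came close to control 4, the groups were apart, with a log2 fold change of -1.13 (limma adjusted p = 0.00587), and its twin probe gave -1.09. Hist1h4m, another H4 gene, had -1.16 (limma adjusted p = 0.0109). Hist1h1d, a linker histone, had one of -1.0 (limma adjusted p = 0.0243, a call that held in 16 of 22 alternatives) and Hist1h1a, another, one of -1.16 that did not pass (adjusted p = 0.103).

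**Figure D1:**
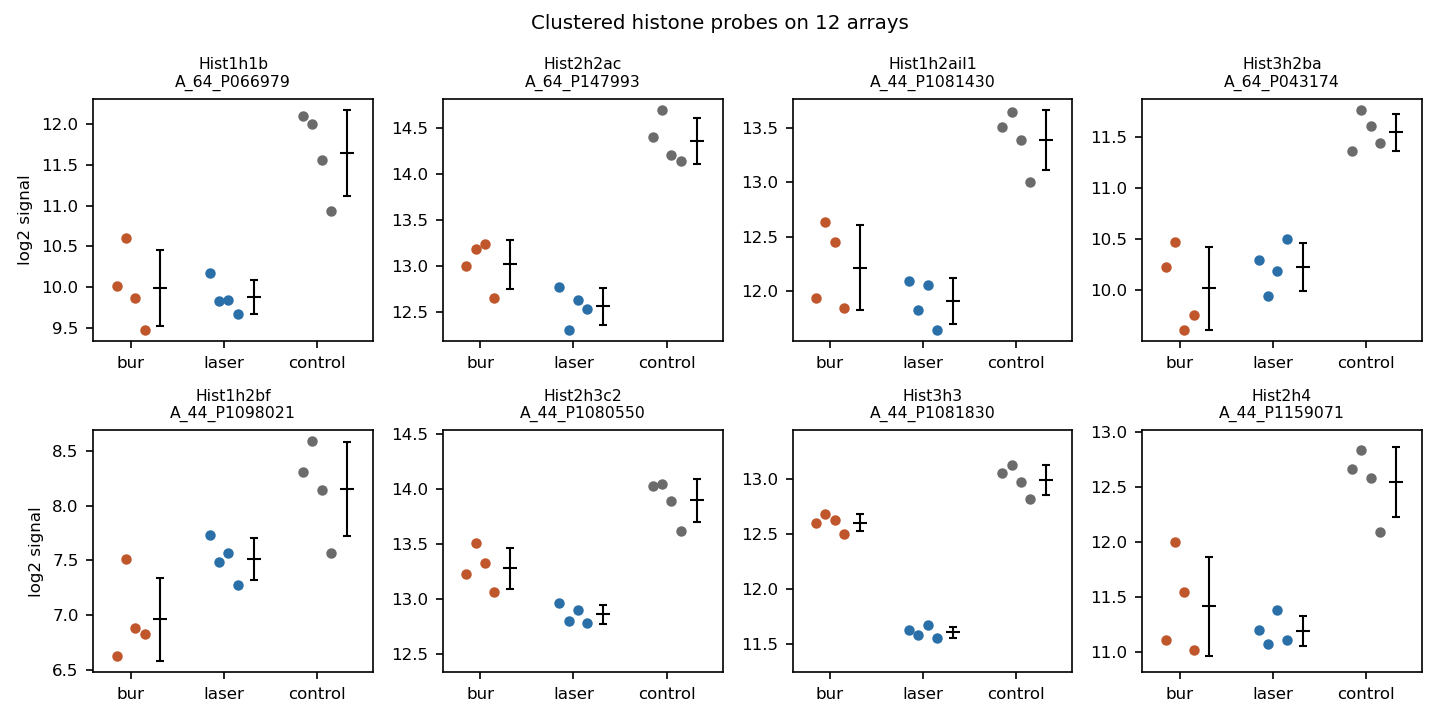
Log2 signal of 8 clustered histone probes on each array of the bur, laser and control groups (points, 4 arrays a group), with the group mean and SD beside them (bar). Bur arrays lie below control arrays in every panel, and so do laser arrays except for Hist1h2bf. For Hist3h3 the bur arrays (12.50 to 12.68) lie between laser (11.56 to 11.67) and control arrays.

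Laser-ablated bone was also set against control bone. Of 33 clustered probes 19 fell and 2 rose, against 32.8% of all probes called, 18.9% higher and 13.9% lower. The median log2 fold change was -0.88 over the clustered probes and 0.05 over all. The median difference of the clustered probes from the control mean was -0.71, -0.82, -1.05 and -0.97 on the 4 laser arrays, below every control array. Fits without control 1 and control 4 called 21 lower and 1 higher, and with 1 probe per gene name 15 fell and 0 rose. By type as named, 2 of 4 H1, 3 of 11 H2A, 7 of 10 H2B, 3 of 3 H3 and 4 of 5 H4 probes fell. Hist1h2ail1, whose probe codes for part of H3, is among the 3 H2A probes that fell. The 2 probes that rose were an H2B and an H4 probe, described below. The comparisons of bur and of laser with control share the control arrays.

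Hist2h2ac read 12.78, 12.31, 12.64 and 12.54 on laser arrays, a log2 fold change of -1.79 ± 0.18 (SE, limma adjusted p = 2.71e-05). Hist1h1b read 10.18, 9.84, 9.85 and 9.67 (log2 fold change -1.76 ± 0.28, limma adjusted p = 0.000776). Hist1h2ail1 read 12.09, 11.83, 12.06 and 11.64 (log2 fold change -1.48 ± 0.21, limma adjusted p = 0.000363). For all 3 the laser arrays lay wholly below the control arrays given above. Hist3h2ba at its AATAAA read 10.30, 9.94, 10.19 and 10.50 on laser arrays, a log2 fold change of -1.31, and Hist1h1c 11.10, 10.98, 11.03 and 11.06, one of -0.88 (limma adjusted p = 0.000636 and 0.000462). Hist1h2bf, across its stem-loop, read 7.73, 7.48, 7.57 and 7.28. Its log2 fold change of -0.64 did not pass (adjusted p = 0.0619), though it did without control 4 (limma adjusted p = 0.0175) or bur 2 (0.0394) and under 75th percentile scaling (0.0291).

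All 3 clustered probes named H3 were lower in laser-ablated bone than in either other group. The probe of Hist1h2ail1, also of H3 sequence, was lower against control but was not called against bur (-0.31, limma adjusted p = 0.311). The first Hist3h3 probe read 11.63, 11.58, 11.67 and 11.56 on laser arrays, with log2 fold changes of -1.39 ± 0.11 against control (limma adjusted p = 5.54e-06) and -0.99 ± 0.11 against bur (limma adjusted p = 7.73e-05). Its twin probe gave -1.36 and -0.99. Hist2h3c2, a core H3 gene, read 12.96, 12.80, 12.90 and 12.78 on laser arrays, 13.23, 13.51, 13.33 and 13.06 on bur arrays and 14.03, 14.05, 13.90 and 13.62 on control arrays. Its log2 fold change was -1.04 for laser against control (limma adjusted p = 0.000252), -0.42 for laser against bur (limma adjusted p = 0.0443, and 0.0522 to 0.117 when bur 1, 2 or 3, control 3 or any 1 laser array was left out) and -0.62 for bur against control (limma adjusted p = 0.0104).

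**Figure D2:**
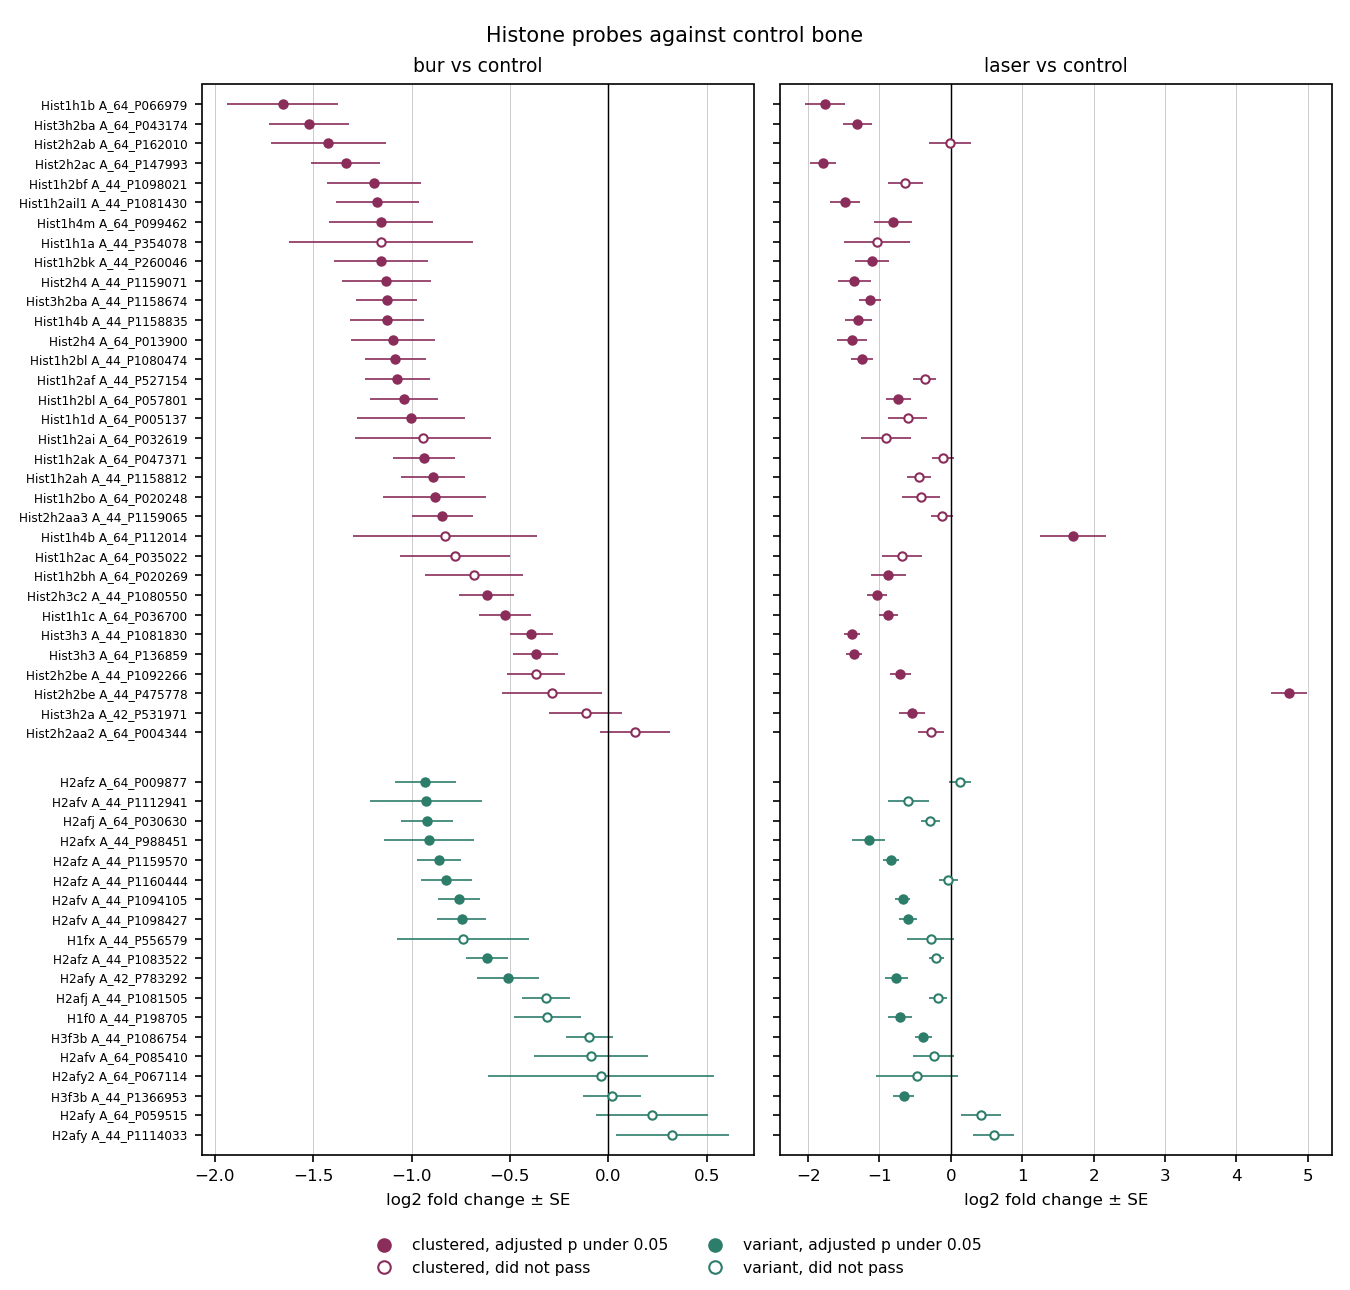
Log2 fold change (± SE) of the 52 kept histone probes, bur against control on the left and laser against control on the right, with the 33 clustered probes above and the 19 variant probes below. Filled points passed the adjusted p threshold. On the left no filled point lies above 0, and on the right 2 clustered probes do, at 4.73 and 1.71. The horizontal scales of the panels differ.

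Some variant genes fell too, and none rose in the fit reported here. In bur-drilled bone 10 of 19 variant probes fell and 0 rose (12 and 0 at an unadjusted p under 0.05), with a median log2 fold change of -0.62, and 8 fell without control 1 and control 4. In laser-ablated bone 8 fell and 0 rose (9 and 0 unadjusted), with a median of -0.39, and again 8 fell without those arrays. Without control 3 alone, 7 variant probes fell and 1 rose for laser. With no filter on dim probes, 10 fell and 1 rose for bur. Over all probes, 7.84% were called lower and 12.6% higher for bur, and 13.9% lower and 18.9% higher for laser. The difference between the clustered and the variant class was not tested. Of the variant types, 10 of 15 H2A probes fell after drilling, against 0 of 2 H1 and 0 of 2 H3 probes. With 1 probe per gene name 5 variant probes fell in each comparison, since H2afz and H2afv hold 8 of the 19.

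H2afx encodes H2A.X, which is phosphorylated around DNA breaks. It read 6.32, 6.84, 6.92 and 6.63 on bur arrays, 6.05, 6.25, 6.79 and 6.66 on laser arrays and 7.15, 7.42, 7.93 and 7.86 on control arrays. Both treated groups lay below the control arrays. The log2 fold change was -0.91 ± 0.23 for bur (SE, limma adjusted p = 0.0169) and -1.15 ± 0.23 for laser (limma adjusted p = 0.00292).

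H2afv, which encodes the second H2A.Z protein, was read by 4 kept probes, of which 3 fell in bur-drilled bone and 2 in laser-ablated bone. The brightest read 11.81, 12.07, 12.02 and 11.90 on bur, 12.16, 12.02, 12.09 and 12.13 on laser and 12.43, 12.81, 12.80 and 12.74 on control arrays. Its log2 fold changes were -0.75 and -0.60 (limma adjusted p = 0.00235 for bur and 0.00382 for laser). The probe A_44_P1094105 gave -0.76 and -0.68. The third, A_44_P1112941, was called for bur (limma adjusted p = 0.0395) in 6 of 20 alternatives only and had an adjusted p of 0.0567 in the authors' deposited table. The fourth probe, well above background on 0 bur, 4 laser and 2 control arrays, did not pass in either comparison.

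H2afy encodes macroH2A1, a histone of silent chromatin with a large added domain. Its brightest probe fell in both groups, with log2 fold changes of -0.51 for bur (limma adjusted p = 0.042, 0.113 under 75th percentile scaling, and called in 9 of 22 alternatives) and -0.77 for laser (limma adjusted p = 0.00371). Its other probes had values of 0.22 and 0.33 for bur (both -0.05 under 75th percentile scaling) and 0.42 and 0.60 for laser, none of which passed. Probes of this gene therefore disagreed in sign. H2afy2, which encodes macroH2A2, did not pass in any comparison (-0.04 for bur and -0.47 for laser).

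H3f3b, which encodes the replacement histone H3.3, did not pass after drilling. Its 2 probes had log2 fold changes of -0.10 (95% interval -0.36 to 0.17) and 0.02 (-0.30 to 0.34) for bur against control. Laser arrays were lower: the second probe read 11.65, 11.18, 11.17 and 11.04 on bur, 10.51, 10.56, 10.61 and 10.67 on laser and 11.15, 11.12, 11.29 and 11.42 on control arrays. The log2 fold change of laser was -0.66 ± 0.15 against control (limma adjusted p = 0.00577) and -0.68 ± 0.15 against bur (limma adjusted p = 0.00616). Its brighter probe gave -0.39 against control (limma adjusted p = 0.0285), and without any 1 laser array, or without control 2, 3 or 4, this no longer passed.

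H1f0, the linker histone H1.0 of resting cells, read 11.45, 12.07, 11.47 and 11.60 on bur, 11.08, 11.47, 11.26 and 11.18 on laser and 11.97, 12.17, 11.99 and 11.69 on control arrays. The laser arrays lay below the control arrays (log2 fold change -0.71 ± 0.17, limma adjusted p = 0.00808), and the bur arrays overlapped them (-0.31, adjusted p = 0.22). H1fx, another linker histone, was well above background on 1 bur, 4 laser and 3 control arrays and did not pass in any comparison. No probe on the array was named H3f3a, the other H3.3 gene.

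**Figure D3:**
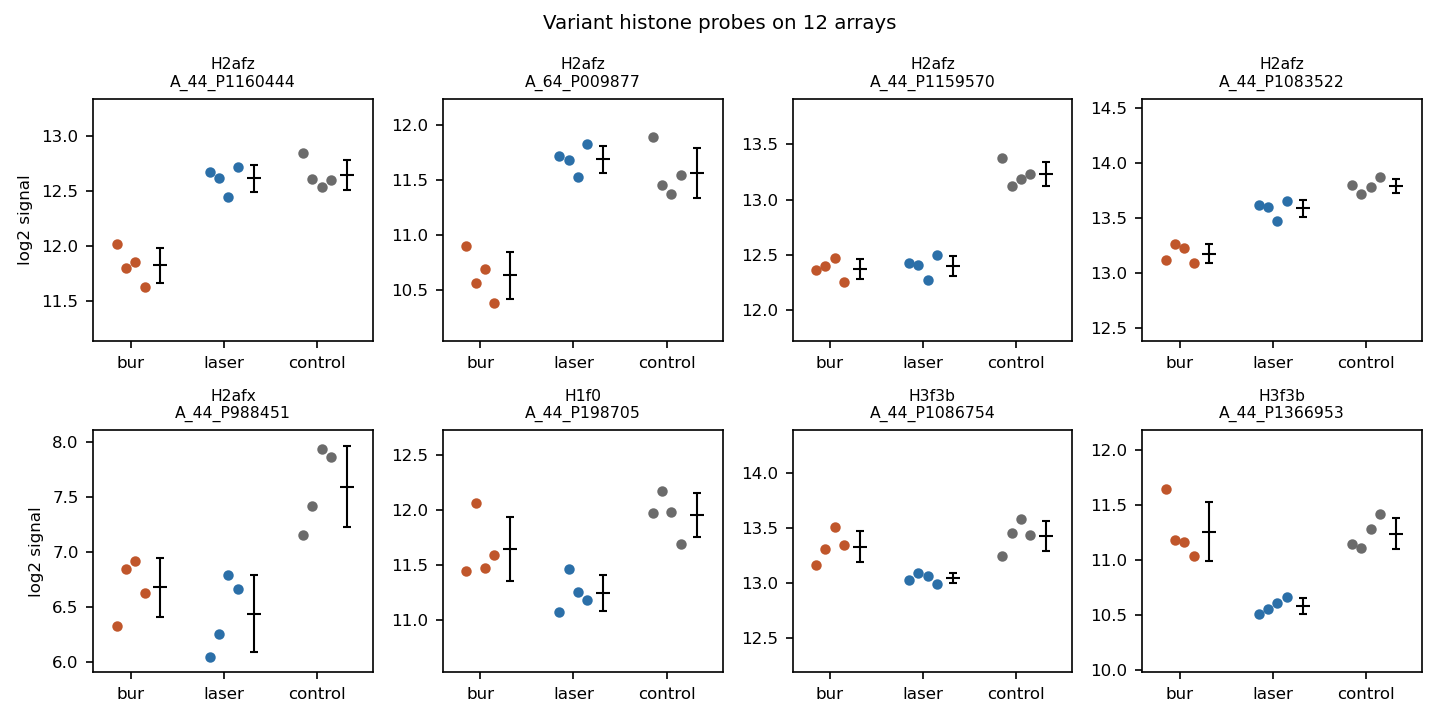
Log2 signal of 8 variant histone probes on each array of the bur, laser and control groups (points, 4 arrays a group), with the group mean and SD beside them (bar). The 4 H2afz probes agree in bur arrays lying below control arrays and disagree on laser arrays, which lie with control for A_44_P1160444 (12.45 to 12.72) and with bur for A_44_P1159570 (12.27 to 12.49).

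Laser-ablated bone was set against bur-drilled bone. Among clustered probes 6 rose and 3 fell, and among variant probes 4 rose and 1 fell, against 27.3% of all probes called, 13.4% higher and 13.9% lower. The shares called were 27.3% of clustered and 26.3% of variant probes, near that of all probes. The median log2 fold change was 0.03 for clustered, 0.14 for variant and -0.06 for all probes.

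Of the 6 clustered probes that rose, 4 were H2A. They were 4 of the 5 H2A probes that end at the stop codon (Hist1h2ak, Hist1h2ah, Hist2h2aa3 and Hist2h2ab) or just before it (Hist1h2af), a set singled out after its values were seen. All but Hist2h2ab are close to identical in sequence, so they are not independent readings. Their log2 fold changes ran from 0.45 to 1.41 for laser against bur, from -0.45 to -0.02 for laser against control, with 0 called, and from -1.42 to -0.84 for bur against control, with 5 called lower. The other 6 probes named H2A ran from -0.46 to 0.10, from -1.79 to -0.28 and from -1.34 to 0.14 in these comparisons, with 0 called between laser and bur. They include Hist1h2ai, whose probe starts in the last codons, holds the stop codon and runs past it: between laser and bur arrays it had 0.03 (adjusted p = 0.958) and between laser and control arrays -0.91 (adjusted p = 0.0647), both outside the ranges of the 5. At an unadjusted p under 0.05, 2 of the 5 were lower on laser than on control arrays, and 3 of the 6 lower on laser than on bur arrays. Among the 6 is Hist1h2ail1, whose probe codes for part of H3 and which is not among those 3. It had -0.31 for laser against bur, -1.48 for laser against control and -1.17 for bur against control, none at an end of these ranges. Hist2h2ab, not well above background on any bur array, read 4.70, 4.10, 3.81 and 4.16 on laser arrays (against bur, limma adjusted p = 0.00458, and 0.0514 with the normexp correction). With bur values raised as above, it was 2.45-fold higher on laser arrays, which is not a lower bound. The log2 fold change was 1.41 as processed here and 0.46 in the authors' deposited table.

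Hist1h2ak, an H2A gene, read 14.14, 13.77, 13.86 and 13.92 on laser arrays and 12.91, 13.31, 13.27 and 12.89 on bur arrays, with control arrays at 14.20, 14.23, 13.87 and 13.83. The laser arrays overlapped the control arrays and lay above every bur array, with a log2 fold change of 0.83 ± 0.16 against bur (SE, limma adjusted p = 0.00276). Hist2h2ac had -0.46 in the same comparison (adjusted p = 0.0786).

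H2afz encodes H2A.Z, a variant placed at gene starts, and its 4 probes differed among themselves on laser arrays. The pair at the stop codon differs at 3 positions, in capitals. Both carry the same coordinates, so they cannot both match that locus at every base.
H2afz A_44_P1160444, chr2:235354700-235354759, plus strand: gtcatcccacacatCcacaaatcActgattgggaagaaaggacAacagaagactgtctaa
H2afz A_64_P009877, chr2:235354700-235354759, plus strand: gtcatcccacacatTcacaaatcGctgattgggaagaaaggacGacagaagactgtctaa
The first read 12.02, 11.80, 11.86 and 11.63 on bur, 12.68, 12.62, 12.45 and 12.72 on laser and 12.85, 12.61, 12.54 and 12.60 on control arrays. Its log2 fold change was 0.79 ± 0.13 for laser against bur (SE, limma adjusted p = 0.00108) and -0.03 for laser against control (adjusted p = 0.862). The second gave 1.05 and 0.12. Another probe, A_44_P1159570, which begins at base 585 of the transcript, read 12.36, 12.40, 12.47 and 12.25 on bur, 12.42, 12.40, 12.27 and 12.49 on laser and 13.38, 13.13, 13.18 and 13.23 on control arrays. Its log2 fold change was -0.83 ± 0.11 for laser against control (limma adjusted p = 0.000255), and that of laser over bur was 0.03 (adjusted p = 0.896). The fourth, beginning at base 751, lay between them, with 0.41 for laser against bur (limma adjusted p = 0.0142, and 0.0683 under 75th percentile scaling). All 4 fell in bur-drilled bone, with log2 fold changes of -0.93 to -0.62. H2afj, a variant H2A gene, had 2 unlike probes here: its probe A_64_P030630 rose by 0.63 on laser over bur arrays (limma adjusted p = 0.00486), and its other probe had 0.14 (adjusted p = 0.45). The authors' deposited table lists H2afj only under that other probe, with 0.39 (adjusted p = 0.0212), between the values of the 2 probes. That row may average both probes, so it does not show whether the split depends on the processing.

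**Figure D4:**
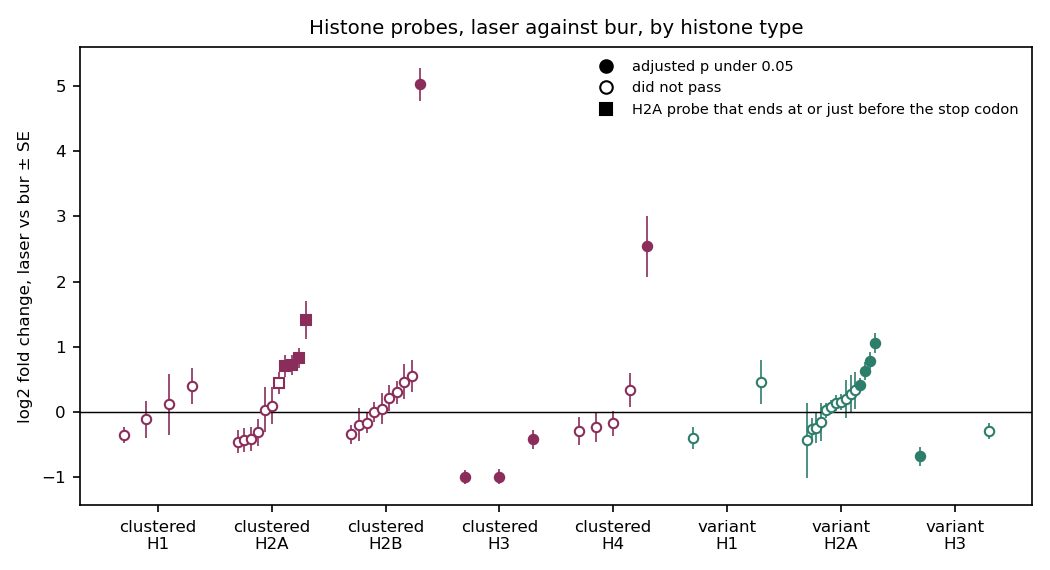
Log2 fold change (± SE) of laser against bur arrays for the 52 kept histone probes, by class and by histone type as in the gene name. Filled symbols passed the adjusted p threshold and squares are the 5 H2A probes that end at or just before the stop codon. Hist1h2ail1, whose probe codes for part of H3, is plotted with H2A. The squares lie at 0.45 to 1.41, and 2 probes, of Hist2h2be and Hist1h4b, lie far above the rest at 5.02 and 2.54.

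The probes of Hist2h2be and Hist1h4b disagreed in direction within a gene. Hist2h2be, an H2B gene with a long mRNA form, has a probe near the start of its transcript, which begins at base 14.
Hist2h2be A_44_P475778, chr2:191024225-191024284, plus strand: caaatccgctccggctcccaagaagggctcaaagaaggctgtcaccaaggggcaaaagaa
That probe read 9.22, 9.12, 9.67 and 9.90 on laser arrays, 4.43, 4.85, 4.15 and 4.40 on bur arrays and 4.87, 5.26, 4.65 and 4.20 on control arrays. The laser arrays stood apart, with log2 fold changes of 4.73 ± 0.25 against control (SE, limma adjusted p = 2.39e-07) and 5.02 ± 0.25 against bur (limma adjusted p = 1.88e-07). The probe at its AATAAA read 8.99, 8.86, 8.43 and 8.80 on laser, 9.28, 9.17, 8.98 and 9.01 on bur and 9.42, 9.48, 9.67 and 9.34 on control arrays, and fell by 0.71 on the log2 scale for laser against control (limma adjusted p = 0.00394). The rise of the first probe was 3.91 in the authors' deposited table and 3.15 with the normexp correction.

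Hist1h4b, an H4 gene, was read at base 200 (chr17:50113699-50113758) and at base 566 (chr17:50117213-50117272) of its transcript. The first probe read 11.53, 11.35, 11.61 and 11.42 on laser, 11.37, 12.06, 11.81 and 11.37 on bur and 12.89, 13.00, 12.83 and 12.38 on control arrays, and fell against control in both groups (log2 fold changes -1.30 for laser and -1.12 for bur), with -0.17 for laser against bur. The authors' deposited table lists the gene only under this probe. Its row gives -0.59 for laser and -1.02 for bur against control, and 0.43 for laser against bur (adjusted p = 0.0256). That row may average both probes of the gene, so it is not taken as a reading of the first alone. The second read 6.57, 6.19, 5.70 and 6.43 on laser, 4.99, 3.66, 3.65 and 2.43 on bur and 5.02, 5.03, 4.02 and 3.97 on control arrays. It rose on laser arrays, by 1.71 ± 0.47 against control (limma adjusted p = 0.016) and 2.54 ± 0.47 against bur (limma adjusted p = 0.00222). It was well above background on 4 laser, 1 bur and 4 control arrays. With the normexp correction the rises were 0.75 and 0.93, and without control 1 and control 4 the rise against control did not pass (1.70, adjusted p = 0.0634). All laser arrays shared 1 slide, and its part in these values was not tested.

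The 11 probes that were not kept were at or near background. They included genes known for the germ line: the testis histones Hist1h1t, Hist1h2aa, Hist1h2ba (2 probes) and H1fnt, the oocyte linker histone H1foo, and H2afb3. The others were Hist1h2an (2 probes), Hist1h3a and Hist3h2bb. None was well above background on any bur or control array, and the highest reading was 3.67 log2 units, of H1foo on bur 1.

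Promoters were compared as a feature that the choice of genes did not use. RefSeq promoter sequences (GRCr8 build, the 250 bases before the start) were found for 30 clustered and 12 variant symbols. The box CCAAT, on either strand, was in 28 of 30 clustered (93.3%), 7 of 12 variant (58.3%) and 34.0% of all 33469 promoters. TATAAA was in 18 of 30, 2 of 12 and 12.9%. It and the motifs below were also searched on either strand and anywhere in the 250 bases, so a match need not be a working TATA box. ATTTGCAT, the octamer bound by Oct-1 and known from H2B promoters, was in 11 of 30, 1 of 12 and 1.56%. Among clustered genes, typed by name, it was in 5 of 9 H2B, 6 of 13 H2A and 0 of 4 H1 promoters. AAACACA, a box known from H1 promoters, was in 6 of 30, 1 of 12 and 6.08%, and in 3 of 4 clustered H1 promoters. None of the 2 H4 and 2 H3 promoters held TATAAA or the octamer. Clustered genes of H2A and H2B often lie head to head and share a promoter, so these counts are not independent. The last 160 bases before the start of Hist1h1b (named H1f5 in RefSeq) and of Hist1h2bk (H2bc12), an H2B gene lower in both treated groups (log2 fold changes -1.15 for bur and -1.10 for laser), show both layouts, with the letters searched in capitals.
Hist1h1b promoter, GRCr8 chr17:47421715-47421874, plus strand: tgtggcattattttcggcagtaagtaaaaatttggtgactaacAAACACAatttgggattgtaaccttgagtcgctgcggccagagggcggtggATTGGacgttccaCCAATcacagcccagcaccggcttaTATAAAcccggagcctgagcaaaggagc
Hist1h2bk promoter, GRCr8 chr17:47181941-47182100, minus strand: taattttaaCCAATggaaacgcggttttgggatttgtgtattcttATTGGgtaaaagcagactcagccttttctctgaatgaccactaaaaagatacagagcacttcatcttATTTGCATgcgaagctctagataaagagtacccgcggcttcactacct
In Hist1h1b the H1 box begins 117 bases before the start and TATAAA 28 bases before it. In Hist1h2bk the octamer begins 48 bases before the start. Its only TATAAA match is on the other strand, 217 bases before the start and outside the bases shown. A match is a run of letters and no evidence of binding.

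Genes that make, carry and deposit histones were counted beside the members, 1 probe per gene. For this and the next lists, the shares over all probes were 7.84% lower and 12.6% higher for bur, and 13.9% lower and 18.9% higher for laser. Of 15 measured genes for transcription and 3' end processing of histone mRNA, 6 fell and 2 rose in bur-drilled bone, and 6 fell and 1 rose in laser-ablated bone, with median log2 fold changes of -0.11 and -0.07. Under 75th percentile scaling, chosen for these lists after the data were seen, 6 fell and 1 rose and 7 fell and 1 rose, with medians of -0.36 and -0.25. Slbp, whose protein binds the stem-loop, had log2 fold changes of -1.15 for bur and -1.07 for laser (limma adjusted p = 0.0083 and 0.00702). Eri1, an exonuclease that trims the stem-loop, had -0.47 and -0.82, and Hinfp, an activator of H4 genes, -0.66 and -0.86, all 4 passing. Npat, the coactivator of clustered histone genes, did not pass (-0.05 and -0.20). The genes that rose were Ncbp2, of the cap-binding complex, after drilling (0.60) and Paip1, which binds the poly(A) binding protein, in both (0.50 and 0.63).

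Of 24 measured chaperone and assembly genes, 10 fell and 1 rose in bur-drilled bone and 10 fell and 3 rose in laser-ablated bone, with median log2 fold changes of -0.42 and -0.41. Under 75th percentile scaling 12 fell and 0 rose and 13 fell and 3 rose, with medians of -0.67 and -0.51. Nasp, a carrier of H1 and H3, had -0.82 and -0.996, Hat1, which acetylates new H4, -0.94 and -1.18, and Chaf1b, of the complex that loads H3 and H4 on new DNA, -0.92 and -0.84, all called. Anp32e, a chaperone that removes H2A.Z, had -1.24 and -0.84, also called. Hira and Daxx, which deposit H3.3, and Atrx did not pass against control in either group. Supt16h, of a complex that moves H2A and H2B ahead of polymerases, was among the 3 called higher on laser arrays. Its probe was well above background on 4 of 12 arrays only, the least the filter allows. Its call therefore carries no weight here, and neither its fold nor its p-value is given.

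Genes of S phase, when histones are made, fell as well. Of 20, 18 fell and 0 rose in bur-drilled bone (median log2 fold change -1.0) and 16 fell and 0 rose in laser-ablated bone (median -0.87). Ccne1, cyclin E1, had -1.69 and -1.56, Pcna, the sliding clamp of DNA polymerase, -0.84 and -0.57, and Rrm2, a subunit that makes deoxynucleotides, -1.14 and -0.96, all passing. Only Tyms was called between laser and bur arrays (0.71, limma adjusted p = 0.0208).

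Markers of erythroid precursors, dividing cells of the marrow, moved the same way: 7 of 7 fell in both comparisons, with medians of -1.75 for bur and -1.44 for laser. Marker counts stand beside shares over all probes of 7.84% lower and 12.6% higher for bur, and 13.9% lower and 18.9% higher for laser. The log2 of the summed signal of the erythroid markers was 15.3 to 16.4 on bur, 15.6 to 16 on laser and 17.1 to 17.4 on control arrays, so neither treated group overlapped the controls. Of 7 markers of B-cell precursors none passed in bur-drilled bone (median -0.48, lowest adjusted p = 0.176) and 1 fell in laser-ablated bone, with summed signals of 11.03 to 11.6 on bur, 10.9 to 12.04 on laser and 11.6 to 12.04 on control arrays. Of 7 measured granulocyte markers 2 fell after drilling and 3 rose after laser ablation, with sums of 15.4 to 16.1 on bur, 16.8 to 17.3 on laser and 15.96 to 16.5 on control arrays. The granulocyte median was nonetheless -0.45 for laser against control, since the other 4 markers had negative values that did not pass. Of 5 macrophage markers, 5 rose in bur-drilled and 4 in laser-ablated bone (3 under 75th percentile scaling), and 1 of 4 T cell markers rose in each. Of the 9 osteoblast and osteocyte markers, 2 rose in bur-drilled bone (1 under 75th percentile scaling, median 0.65) and 5 in laser-ablated bone (median 0.997), and 0 fell. Of 6 measured neural markers 3 fell in each comparison, with the sums given above. The part of these cells in the histone values was not tested.

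**Figure D5:**
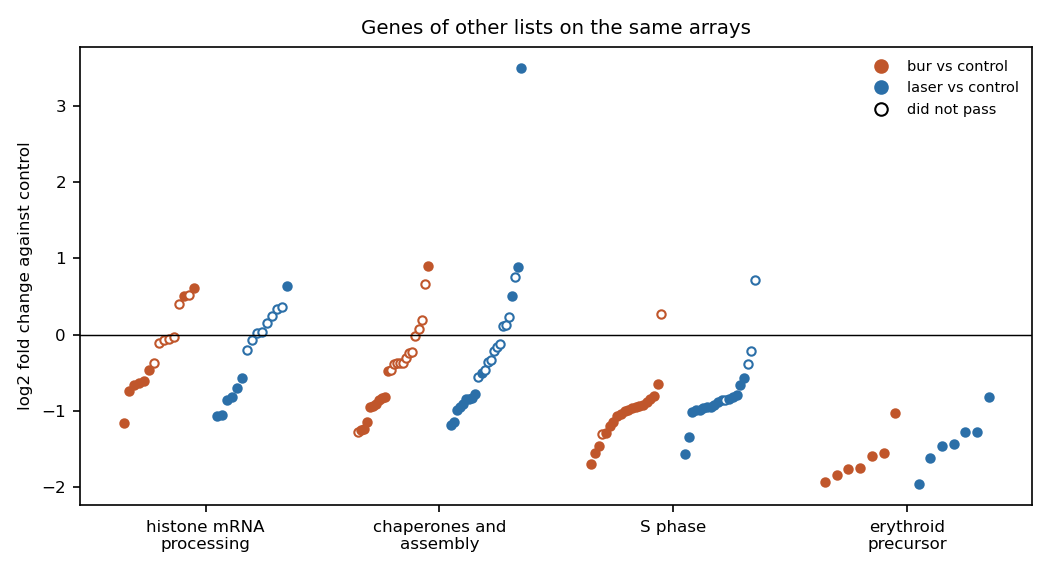
Log2 fold change against control of single genes (1 probe each) for histone mRNA transcription and processing (15 genes), histone chaperones and assembly (24), S phase (20) and erythroid precursors (7), with bur in orange and laser in blue; open points did not pass. S phase and erythroid genes lie below 0 apart from 1 S phase gene, Gins2, that did not pass, while the processing and chaperone genes spread to both sides.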

How the data were processed

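Each of the 12 deposited scanner files gives the intensity of every spot as a background-corrected processed signal, with flags for outlier spots and for spots well above background, per the file headers. The submitters' processing notes name Agilent Feature Extraction, version 11.0.1.1. RNA was labelled with Cy3 from 200 ng, per the labels' protocols; the primer of the labelling kit is not given in the sources used here. The authors also deposited log2 values, quantile normalized by their title, and tables of log2 fold changes (fold), p-values and adjusted p-values, which list 21080 probes, 39 of them members, per the file headers.

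The processed intensity was taken to log2 after control and outlier spots were left out, quantile normalized between arrays, and averaged over the spots of a probe. A probe was kept if well above background on at least 4 of 12 arrays. All 12 arrays entered 1 limma fit (limma 3.58.1, R 4.3.3; lmFit, contrasts, eBayes), by probe and not by gene, since histone copies are near identical, with Benjamini-Hochberg adjustment over 27194 probes at 0.05. The fit was tested on simulated data. Probes named in the text were up to 5 called probes a class and comparison with the largest change and no overlap between groups, plus the brightest probe of H2afx, H2afz, H2afv, H2afy, H3f3b, H1f0, H1fx and Hist1h1c; others were chosen after their values were seen. List genes with several kept probes were represented by the brightest. The members, lists and rules were chosen with earlier results of these data known. Names and promoters came from RefSeq (GRCr8): 62 of 63 probes were matched, 51 by accession. No 2 arrays were duplicates (highest correlation within a group 0.989). The number of arrays limits the precision.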

Additional observations from a re-analysis of the deposited data

Results flagged for a closer look

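Of 72 groups of 4 arrays tested among the 24 named probes, 1 held an array that stood apart by Dixon's test at 95%, which chance alone gives about 1 time in 20: the Hist3h3 probe A_64_P136859 on bur 4, at 12.45 log2 units, below the other bur arrays. For 6 probes outside the tests, laser arrays were well above background while no bur or control array was: H1foo and Hist3h2bb on 3 laser arrays each, Hist1h1t and one Hist1h2ba probe on 2 each, and Hist1h2aa and Hist1h3a on 1 each. Laser arrays also had more spots well above background in all (67.5 to 72%, against 57.0 to 59.9% on bur and 57.2 to 64.4% on control arrays), and its part in these 6 probes was not tested.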

How the results depend on the processing

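Of the member calls, 27 of 34 (bur against control), 24 of 29 (laser against control) and 11 of 14 (laser against bur) held under every alternative run, and none turned. Clustered calls numbered 20 to 25, 18 to 25 and 8 to 10 in these comparisons when 1 array was left out, and variant calls 8 to 10, 7 to 8 and 5. These counts moved by over 1.5 times: variant calls were 5, 5 and 3 in the authors' values, which list 11 of the 19 probes and no more than 1 for each transcript, and 5, 5 and 2 with 1 probe per gene name (10, 8 and 5 as reported), clustered laser against bur calls were 14 with array weights (9 as reported), and calls over all probes for bur against control were 3243 with only those groups fitted and 3273 without control 1 and control 4 (5554 as reported). The replicate numbers were not shown to pair the arrays: deviations of same-numbered arrays correlated at -0.07 to 0.29, with at least 1 of 4 pairs under 0.1 in each comparison, and not every array correlated best with its own number. With the replicate number as a block, clustered calls were 25, 23 and 10 and variant calls 10, 8 and 6. Among the 24 named probes, signs turned only for log2 fold changes that were not called. These were H3f3b A_44_P1366953 bur against control (-0.075 with array weights, -0.1127 to 0.0922 with 1 array left out), H2afz A_44_P1160444 laser against control (-0.0708 to 0.0327 with 1 array left out, 0.0397 without control 1 and control 4), Hist2h2ab laser against control (0.1515 with array weights, -0.2487 to 0.186 with 1 array left out), H2afz A_44_P1159570 laser against bur (-0.0153 under 75th percentile scaling, -0.0143 to 0.0684 with 1 array left out) and Hist1h1b laser against bur (-0.2798 to 0.0933 with 1 array left out). The authors' row under H3f3b A_44_P1086754 had 0.0079 for bur against control. It may average the probes of that gene, so it need not show that this probe turned. Other members not called turned too, among them H2afy A_44_P1114033 bur against control (-0.048 under 75th percentile scaling, 0.3262 as reported) and, in the authors' values, Hist3h2a bur against control (0.1608, -0.115 as reported). The authors' row under Hist1h4b A_44_P1158835 had 0.4263 for laser against bur (adjusted p = 0.04595 in the limma fit, -0.1713 as reported). That row, too, may average the probes of its gene. The causes were not tested. The sizes of the dim Hist2h2ab probe depended on the background correction.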
